A study of Caenorhabditis elegans with 30 samples.

Results

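Germline-less *glp-1(-)* adults of *Caenorhabditis elegans* that had eaten *hda-1* RNAi bacteria were compared at day 12 of adulthood with *glp-1(-)* adults of the same day on empty vector (E.V.) bacteria. The libraries were taken by genotype, day and diet as labelled, which gave 4 of the 30 libraries of the series, 2 on each diet. The series measured RNA primed on poly(A) in 15 groups of 2 libraries. The whole worms had or lacked SET-26, a chromatin reader, or HCF-1, its partner in transcription control. All groups carried *glp-1(e2141)*, which leaves adults raised at 25 °C without a germline. Besides the 2 *glp-1(-)* groups of day 12, the *hda-1* RNAi and E.V. groups of the *glp-1(e2141);set-26(tm2467)* and *glp-1(e2141);hcf-1(pk924)* double mutants at day 12 and of *glp-1(-)* at day 3, and E.V. worms of *glp-1(-)* at day 1, were used for comparison. All worms were raised to adulthood on HT115 bacteria that carried the L4440 empty vector. Feeding with bacteria that carried the *hda-1* clone began at day 1 of adulthood, when each population was divided between the diets. Libraries with the same number on the same day therefore shared a population and are called population 1 and population 2 here. By the methods of the study, worms were taken from a population at day 1 and day 3 and the rest kept to day 12. Same-numbered libraries of different days thus also shared a population.

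HDA-1 is the worm counterpart of the mammalian histone deacetylases HDAC1 and HDAC2. It removes acetyl groups from histone tails within complexes such as NuRD and SIN3, and loss of histone deacetylase activity is generally associated with a rise in transcription of genes that the complexes keep silent, although deacetylases also act at active genes. RNAi by feeding acts throughout most of the worm's somatic tissues, while neurons respond weakly to it. Whole worms were lysed, so fewer cells of a type and less RNA per cell cannot be told apart in any value given here.

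The 4 libraries held 8841931 and 7645370 reads assigned to genes on *hda-1* RNAi and 9093099 and 6045498 on E.V., in the range of the whole series (6045498 to 17748121). At these depths a floor of 3 reads stood for 3.39e-05% and 3.92e-05% of the reads on *hda-1* RNAi and for 3.30e-05% and 4.96e-05% on E.V., a limit that covers counting error only. Mitochondrially encoded genes took 1.87% and 1.51% of the reads on *hda-1* RNAi and 2.39% and 1.58% on E.V. The germline-less label was checked against germline genes. Of 31 major sperm protein genes 0 passed the filter on low counts (over 10 reads in 2 or more of the 4 libraries), and of 16 germ granule genes 5 passed it, of which 0 were called by edgeR or DESeq2 and 0 had an unadjusted p under 0.05. Of 13 oocyte and eggshell genes 8 passed it, with a summed level of 6795 and 8192 CPM on *hda-1* RNAi and 7482 and 7341 CPM on E.V. The eggshell genes *perm-4* (3931 and 4369 CPM on *hda-1* RNAi, 4254 and 3733 CPM on E.V.) and *perm-2* (2835 and 3783 CPM, against 3208 and 3588 CPM) made up nearly all of that sum, were named after their values were seen, and were the members of the germline lists with high levels. Levels are given below as CPM, reads scaled to a common library total after normalisation by the trimmed mean of M values.

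The gene *hda-1* itself (WBGene00001834, WBcel235 V:14525389-14527411) had 1444 and 1527 CPM in the *hda-1* RNAi libraries of population 1 and 2, against 41.0 and 39.99 CPM in the E.V. libraries. Its reads were therefore higher, not lower, in the libraries labelled *hda-1* RNAi, by 5.20 ± 0.20 on the log2 scale (SE, n = 2 pairs, edgeR adjusted p = 6.91e-143). The same held in *glp-1(-)* at day 3 (log2 fold change 4.77) and in both double mutants at day 12 (5.07 and 5.39). The source of these reads was not tested, and the knockdown itself cannot be read from this gene in these libraries. For this reason *hda-1* was left out of all rankings, and the directions given below rest on the labels.

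At day 12, *hda-1* RNAi upregulated 1119 of the 12951 genes tested (8.64%) and downregulated 559 (4.32%) in *glp-1(-)*, 1678 or 13.0% in all, in a paired edgeR quasi-likelihood test called at an adjusted p under 0.05. Increases were also larger than decreases. The median size of the log2 fold change was 1.40 among upregulated and 0.89 among downregulated genes, and 783 upregulated against 212 downregulated genes moved at least 2-fold. Both populations moved in the fitted direction for 1663 of the 1678 genes, which a call in a paired test favours. The median over all genes tested was -0.01. The changes in the 2 populations had a Pearson correlation of 0.63 across genes, which are not independent replicates. Genes whose CPM did not overlap between the diets numbered 2824 higher (21.8%) and 2633 lower (20.3%). The genes named below as highest and lowest, or by gain and loss of CPM, were ranked among called genes without such overlap. Its absence is therefore no further evidence for them. With 2 pairs the test has 1 residual degree of freedom and takes its spread from the trend over all genes, so its smallest p-values reflect that assumption. Without the pairing edgeR called 118 genes up and 10 down, and DESeq2 with the pairing 358 up and 149 down, all of them within the genes called here and in the same direction. In a fit of all 12 libraries of day 12, which pools the spread over the genotypes, 1060 rose and 590 fell. For this comparison, without population 1 or 2 means below that this fit left out that *glp-1(-)* population. A single *glp-1(-)* pair then remained, and the spread was taken from the mutant pairs alone. Calls in those fits set the fold of 1 population against that spread, and do not test a population by itself.

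**Figure D1:**
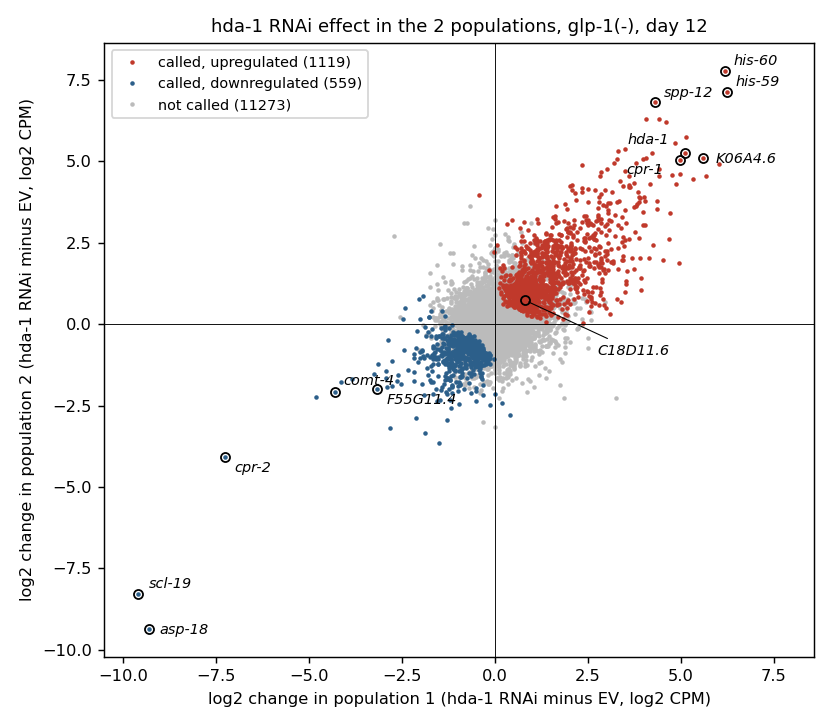
Change of every gene tested in population 1 (x axis) against population 2 (y axis), as log2 CPM on *hda-1* RNAi minus log2 CPM on E.V. in *glp-1(-)* at day 12. Red points are the 1119 upregulated genes and blue points the 559 downregulated genes, and most lie in the quadrants where both populations moved alike, with *asp-18*, *scl-19* and *cpr-2* at the lower left and histone genes at the upper right.

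Of the 12 genes with the highest rise in both populations 6 were histone genes. Core histones H2A, H2B, H3 and H4 package DNA, and in worms most of their genes are repeated in small clusters whose transcripts are made during DNA replication and in animals generally end without a poly(A) tail, whereas histone variant genes are transcribed outside of replication and polyadenylated. The libraries were primed on poly(A), which favours polyadenylated transcripts but did not shut out all others. Ribosomal RNA took 3.63% and 2.76% of the reads on *hda-1* RNAi and 3.30% and 3.83% on E.V. Whether the histone reads below came from transcripts with a poly(A) tail was not tested. Of 72 annotated histone genes 25 passed the filter, and 19 of these were upregulated, 0 downregulated and 6 not called, with a median log2 fold change of 5.11 against -0.01 over all genes tested. The median was 3.31 in population 1 and 4.54 in population 2, and 3.80 when levels below a floor of 3 reads per library were set to that floor. A gene near 0 on E.V. passed the filter only through its reads on *hda-1* RNAi, so these shares do not describe all 72.

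The H4 gene *his-60* (WBGene00001934, IV:7487681-7487992) had 377 and 698 reads on *hda-1* RNAi, against 3 and 1 reads on E.V., or 43.3 and 91.0 CPM against 0.341 and 0.160 CPM. Its diets did not overlap and its log2 fold change was 7.80 ± 0.39 (edgeR adjusted p = 9.13e-83). Its neighbour *his-59*, an H3 gene, had 165 and 272 reads on *hda-1* RNAi and 0 in both E.V. libraries, which makes it at least 66.3-fold higher at a floor of 3 reads per E.V. library. The 4 genes of that cluster, *his-61*, *his-62*, *his-60* and *his-59* (IV:7485834-7488659), were all upregulated. The H2B gene *his-62* had 22.3 and 25.2 CPM on *hda-1* RNAi and 0.568 and 0.800 CPM on E.V. (log2 fold change 5.11 ± 0.38), and the H2A gene *his-61* rose by 4.77 ± 0.49.

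The same pattern held at clusters on chromosome V. The H2A gene *his-3* had 44.8 and 82.7 CPM on *hda-1* RNAi, against 1.02 and 1.28 CPM on E.V., a log2 fold change of 5.72 ± 0.32 (edgeR adjusted p = 2.87e-68). Together with *his-4*, *his-2*, *his-1* and the noncoding gene *linc-61* it formed a run of 5 consecutive tested genes that were all upregulated (V:16040144-16043761). In this run the H2B gene *his-4* had 144 and 205 reads on *hda-1* RNAi and 0 and 4 reads on E.V. A further run on the same chromosome (V:8518934-8535525) held *his-8*, *his-7*, *his-6* and *his-5* beside *F45F2.11* and *otpl-5*. There *his-7* had 14.8 and 32.2 CPM on *hda-1* RNAi, against 0.454 and 0.160 CPM on E.V. (5.97 ± 0.43), and the H3 gene *his-6* had 33 and 64 reads on *hda-1* RNAi against 0 in both E.V. libraries, at least 14.8-fold higher. Population 2 had the higher value on *hda-1* RNAi for each of these genes.

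The linker histone H1 gene *his-24* also rose, with 53.4 and 83.0 CPM on *hda-1* RNAi and 19.8 and 37.3 CPM on E.V. (1.29 ± 0.21, edgeR adjusted p = 7.13e-08). The X-linked pair *his-40* and *his-38* rose by 1.80 and 1.03, but the call of *his-38* was lost in the 12-library fit (adjusted p = 0.16) and that of *his-40* without population 2 (adjusted p = 0.11). In contrast, the 6 histone genes with no call, named here as the remaining members of the list, had reads in all 4 libraries at levels that differed little between diets. They included the H3.3 variant genes *his-72* (440 and 543 CPM on *hda-1* RNAi, 437 and 607 CPM on E.V.) and *his-71* (124 and 148 CPM against 120 and 128 CPM). The H2A gene *his-35* had a log2 fold change of -0.29 ± 0.18, *his-41* of -0.29 ± 0.25, *his-37* of 0.03 ± 0.18 and *his-74* of 0.07 ± 0.26. Many histone genes are near-identical copies and reads that matched more than 1 place were dropped, so the count of any single copy is uncertain. DESeq2 with the pairing called 14 of the 25 up, and edgeR without the pairing called 13. Among those not called by DESeq2 were *his-59*, *his-6* and *his-38* (adjusted p = 0.18, 0.455 and 0.536).

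**Figure D2:**
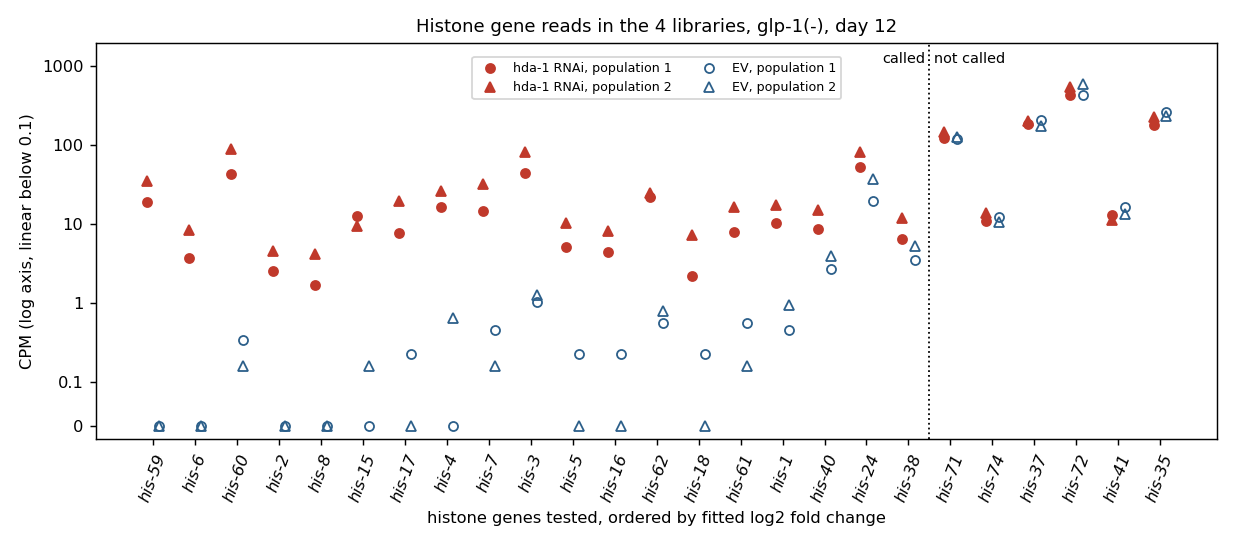
CPM on a log axis (linear below 0.1) of the 25 histone genes that passed the filter, in the 4 *glp-1(-)* libraries of day 12, ordered by fitted fold change. Filled red symbols are *hda-1* RNAi and open blue symbols E.V., and left of the dotted line the 19 called genes sit near 0 to a few CPM on E.V., apart from *his-24*, while the 6 uncalled genes to its right overlap or lie close between diets, at up to 607 CPM.

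The largest losses by fold in both populations were in genes for 2 proteases and a secreted protein. The aspartyl protease gene *asp-18* (WBGene00013973, V:18730174-18731679) had 1.72 and 0.130 CPM on *hda-1* RNAi, against 1249 and 252 CPM on E.V., a log2 fold change of -9.67 ± 0.30 (edgeR adjusted p = 3.81e-216). The adjacent gene *scl-19* (V:18731991-18732772), which encodes an SCP-like extracellular protein, had 0.918 and 0.391 CPM on *hda-1* RNAi, against 901 and 199 CPM on E.V. (-9.66 ± 0.31). The cathepsin B-like cysteine protease gene *cpr-2* had 55.8 and 34.3 CPM on *hda-1* RNAi, against 8578 and 590 CPM on E.V. (-5.72 ± 0.19). All 3 fell in both populations with no overlap between diets, as the rule that named them required. Their E.V. levels differed 4-fold or more between the populations, and population 1 had the higher level each time. Without the pairing *asp-18* and *scl-19* kept their calls (adjusted p = 0.022 and 0.011) and *cpr-2* did not (0.068).

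Other proteases moved the opposite way. The cathepsin B-like gene *cpr-1*, an intestinal protease, had 622 and 151 CPM on *hda-1* RNAi, against 19.3 and 4.32 CPM on E.V., and rose by 5.05 ± 0.23 (edgeR adjusted p = 1.75e-100). The aspartyl protease gene *asp-17* had 174 and 93.8 CPM on *hda-1* RNAi, against 15.2 and 3.36 CPM on E.V. (3.99 ± 0.24). Again the diets did not overlap for either gene, and without the pairing neither was called (adjusted p = 0.064 and 0.054). Over the asp and cpr families, a list chosen after its values were seen, 7 of 21 tested genes rose and 7 fell, with a median of 0.05. Fewer falls were called without population 1. Among 9 SCP-like genes, a list chosen in the same way, 0 rose and 2 fell (median -0.18). The 2 lowest genes and *scl-20* stood side by side with *ZK384.7* in a run of 4 consecutive downregulated genes (V:18730174-18737785), where *scl-20* had no call without population 1 (adjusted p = 0.28), and *asp-17*, *asp-16*, WBGene00012680 and *asp-1* formed an upregulated run (V:19035723-19050752).

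Markers of the intestine, the organ in which *cpr-1* is made, had more falls than rises. Of 11 intestine markers 2 rose (*cpr-1* and *asp-1*) and 4 fell, with a median of -0.54. The 4 falls, among them the intermediate filament gene *ifb-2* (-0.82) and the brush border actin gene *act-5* (-0.58), were not called without population 2 (adjusted p = 0.29 and 0.42 for these). Their summed level was 2797 and 1683 CPM on *hda-1* RNAi and 2038 and 2207 CPM on E.V., and 0 of the 11 were at 0. Whether a change of the intestine took part in the protease results was not tested.

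Among the other genes with the largest falls by the smaller of the changes in the 2 populations, *comt-4*, which belongs to the catechol-O-methyltransferase family, had 6.77 and 4.57 CPM on *hda-1* RNAi, against 139 and 20.3 CPM on E.V. (-3.45 ± 0.26, edgeR adjusted p = 3.46e-36). *F55G11.4* had 3.79 and 4.30 CPM on *hda-1* RNAi and 35.8 and 17.9 CPM on E.V. (-2.68 ± 0.28). *W02D7.11* had 4 and 6 reads on *hda-1* RNAi, against 173 and 29 reads on E.V. (-4.16 ± 0.47). For each of these the lower E.V. library was above both *hda-1* RNAi libraries, but the fall was larger in population 1 (-4.30, -3.16 and -4.80 for *comt-4*, *F55G11.4* and *W02D7.11*) than in population 2 (-2.09, -1.995 and -2.24). Non-overlapping losses were also seen for *ZK355.3* (-3.12), *C14C6.5* (-2.64), *T01C3.11* (-2.55), *Y54G2A.49* (-2.24), *Y47H9C.1* (-1.91) and *C50F4.8* (-1.74). Of these *Y47H9C.1* was the most highly expressed, with 56.2 and 42.1 CPM on *hda-1* RNAi against 220 and 151 CPM on E.V.

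Antimicrobial effectors were among the largest gains. Saposin-like proteins bind and disrupt membranes, and lysozymes cleave bacterial cell walls. The saposin-like gene *spp-12* had 837 and 1581 CPM on *hda-1* RNAi, against 41.8 and 13.8 CPM on E.V. (5.48 ± 0.21, edgeR adjusted p = 9.09e-141). The saposin-like gene *spp-14* had the largest gain in mean CPM of the called genes without overlap, with 3978 and 3381 CPM on *hda-1* RNAi and 1197 and 496 CPM on E.V. (2.25 ± 0.16). Neither gene overlapped between diets, although *spp-14* was not called without the pairing (adjusted p = 0.079). The lysozyme gene *lys-10* had 174 and 142 reads on *hda-1* RNAi, against 5 and 0 reads on E.V. (5.84 ± 0.45), and the invertebrate lysozyme gene *ilys-5* had 65.3 and 22.04 CPM against 2.27 and 3.36 CPM (3.88 ± 0.29). Of 48 lysozyme, saposin-like and caenacin genes tested 22 rose and 7 fell (median 0.63). Fewer were called in each direction without population 1 and without population 2. DESeq2 with the pairing called 13 up and 2 down, and edgeR without it 5 up. The caenacin gene *cnc-7* fell by 1.27 on the log2 scale.

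Other families with roles in pathogen response moved in both directions, against 8.64% up and 4.32% down over all genes tested. The filter was passed by 82 of 240 C-type lectin genes, and a gene near 0 on E.V. passed it only through its reads on *hda-1* RNAi. Of 82 C-type lectin genes, whose products bind carbohydrates, 29 rose and 8 fell (median 0.50), but 13 rose and 2 fell without population 1, 16 and 6 without population 2, 8 and 3 by DESeq2, and 1 rise without the pairing. One of them, *clec-101*, had 25 and 34 reads on *hda-1* RNAi and 0 in both E.V. libraries, at least 8.90-fold higher, but was not called by DESeq2 with the pairing (adjusted p = 0.557). Of 31 pals genes, some of which regulate the intracellular pathogen response, 6 rose and 2 fell (median 0.26), with 2 rises without population 1 and 0 falls without population 2. The clearest, *pals-3*, had 34.3 and 29.6 CPM on *hda-1* RNAi, against 7.61 and 11.5 CPM on E.V. (1.77 ± 0.25). Infection response and DAF-16-downstream genes of the irg and dod names were divided, with 6 of 14 up and 4 down (2 up without population 2). Within that list *dod-23* rose by 1.71, whereas *dod-6* and *dod-19* fell by 1.61 and 1.38 on the log2 scale. For *dod-6* the levels were 611 and 281 CPM on *hda-1* RNAi and 2765 and 578 CPM on E.V., so the diets overlapped across populations although the level was lower on *hda-1* RNAi within each, and it was not called without the pairing (adjusted p = 0.34).

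Many of the cuticle genes tested rose. Collagens are the main structural proteins of the cuticle, and most are made by the hypodermis at each molt and in young adults. Of 156 col genes 66 passed the filter, and 37 of these rose and 0 fell (median 1.18, and 1.00 and 1.26 in the 2 populations). That is 56.1% up, against 8.64% of all genes tested. Of 21 further cuticle genes, named for the body shape of their mutants, 8 passed it, of which 6 rose and 0 fell (median 2.20). A gene near 0 on E.V. passed the filter only through its reads on *hda-1* RNAi, so these shares do not describe all cuticle genes. Without population 1 the col count was 25, without population 2 it was 23, by DESeq2 with the pairing it was 19 and by edgeR without the pairing it was 6, and that of the further cuticle genes was 4 in both cases and in the 12-library fit.

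The highest of them by smaller pair change, *col-183* (X:13466643-13467764), had 77.6 and 141 CPM on *hda-1* RNAi, against 3.41 and 4.96 CPM on E.V. (4.67 ± 0.26, edgeR adjusted p = 2.87e-68). In the second list *dpy-5* had 18.5 and 28.04 CPM on *hda-1* RNAi and 1.25 and 1.28 CPM on E.V. (4.14 ± 0.34). There *ram-2* had 24.8 and 27 CPM against 3.41 and 3.36 CPM (2.92 ± 0.29), and *sqt-2* rose by 3.85 ± 0.61. The diets did not overlap for any of these genes. Collagen genes are many and similar, so reads of close copies may have been lost or split. Hypodermis markers were few: 4 of 9 passed the filter, 2 rose (*col-19*, itself a collagen, and *elt-3*, which was not called without population 1, adjusted p = 0.41), and their summed level was 148 and 103 CPM on *hda-1* RNAi and 107 and 53.1 CPM on E.V. Their part in the collagen result was not tested.

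Hedgehog-related genes, many of which are expressed in cuticle-forming cells, showed the same direction with a smaller share. Together with the patched-related genes, 40 of 83 passed the filter, of which 11 rose (27.5%) and 1 fell (median 0.31). A gene near 0 on E.V. passed it only through its reads on *hda-1* RNAi, so this share does not describe all 83. DESeq2 with the pairing called 4 up and 0 down, and edgeR without the pairing also 4 up and 0 down. The gene *grd-3* had 27.1 and 32.0 CPM on *hda-1* RNAi, against 2.39 and 1.28 CPM on E.V. (3.94 ± 0.31). Its relative *grd-4* had 68 and 46 reads on *hda-1* RNAi and 0 in both E.V. libraries, at least 16.8-fold higher, but was not called by DESeq2 with the pairing (adjusted p = 0.41). The single fall, *ptr-22* (-0.75), was not called without population 2 (adjusted p = 0.27).

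**Figure D3:**
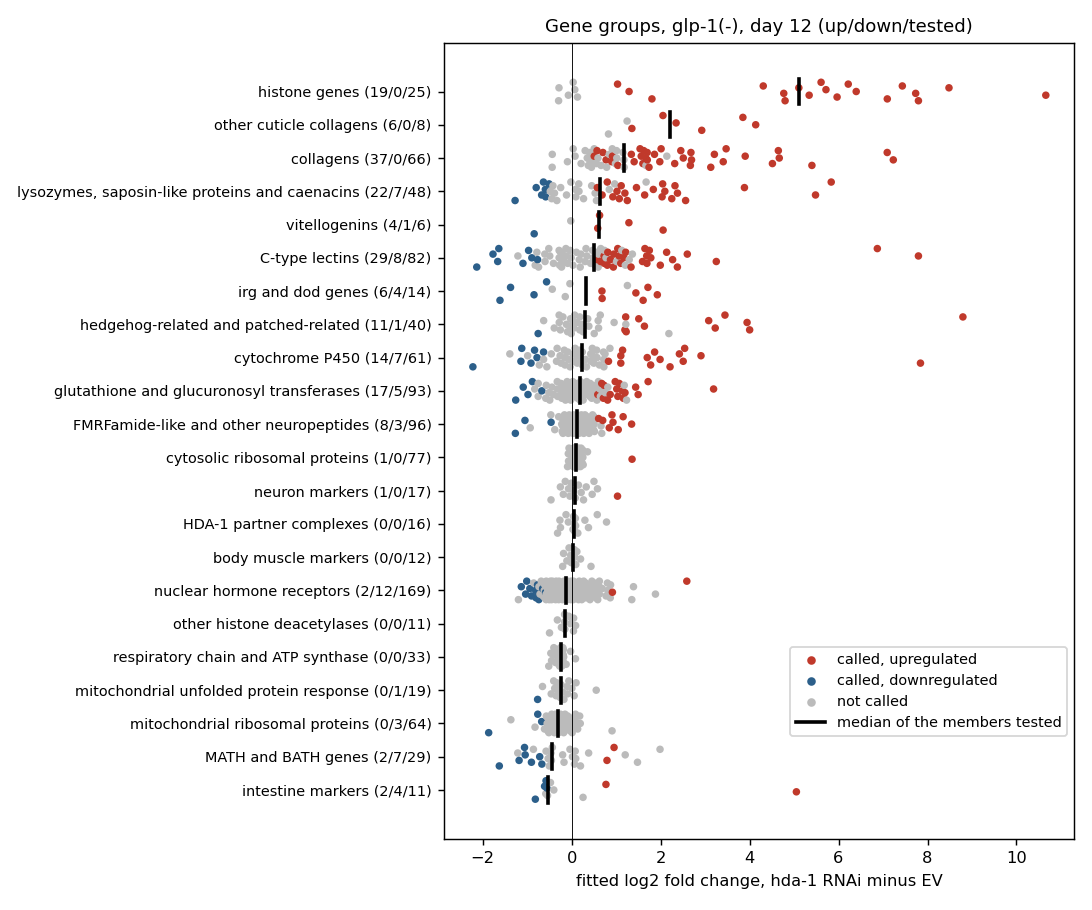
Fitted log2 fold change of each tested member (points) of 22 gene groups, on *hda-1* RNAi minus E.V. in *glp-1(-)* at day 12, with the count of upregulated, downregulated and tested members beside each name and the group median as a black bar. Red points are called up, blue points called down and grey points not called. Medians run from 5.11 for histone genes to -0.54 for intestine markers, and the ribosomal, muscle, neuron and HDA-1 partner groups lie close to 0.

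Yolk and lipid genes changed gene by gene. Vitellogenins are yolk proteins made in the intestine, and 4 of 6 rose while 1 fell. The gene *vit-3* had 87.4 and 46.4 CPM on *hda-1* RNAi, against 17.5 and 13.8 CPM on E.V. (2.06 ± 0.23), and *vit-4* had 93.7 and 48.0 CPM against 40.7 and 18.4 CPM (1.29 ± 0.21). The more abundant *vit-5* and *vit-6* moved in opposite directions (0.63 and -0.84) and lost their calls without population 1 and without population 2 (adjusted p = 0.21 and 0.21). Among 13 fatty acid desaturases and elongases 2 rose and 3 fell, with 6 and 1 without population 1 and 1 and 4 without population 2. The stearoyl-CoA desaturase gene *fat-7* had 14.6 and 12.9 CPM on *hda-1* RNAi, against 0.682 and 0.960 CPM on E.V. (4.08 ± 0.42), whereas the elongase gene *elo-5* had 101 and 46.4 CPM against 271 and 91.7 CPM (-1.21 ± 0.19). Among 44 genes of fatty acid activation and beta-oxidation 5 rose and 4 fell (median -0.14). The carnitine palmitoyltransferase family genes *cpt-3* and *cpt-5* rose by 1.80 and 1.41. Fewer falls were called among the 44 genes without population 1.

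Metallothioneins, which bind heavy metals, were divided. *mtl-2* had 1533 and 1020 CPM on *hda-1* RNAi, against 545 and 515 CPM on E.V. (1.24 ± 0.17, edgeR adjusted p = 5.76e-12). *mtl-1* had 379 and 302 CPM on *hda-1* RNAi, against 1167 and 608 CPM on E.V. (-1.32 ± 0.17), with no overlap between diets. Detoxification enzymes also split: 14 of 61 cytochrome P450 genes rose and 7 fell (median 0.24). Fewer rises were called without population 2 and fewer falls without population 1. DESeq2 with the pairing called 6 up and 3 down, and edgeR without the pairing 1 up and 0 down. The most reduced, *cyp-25A1*, had 40 and 26 reads on *hda-1* RNAi against 257 and 65 reads on E.V. (-2.22 ± 0.29). Of 93 glutathione and glucuronosyl transferase genes 17 rose and 5 fell (median 0.19), with fewer in each direction without population 1 and without population 2. By DESeq2 with the pairing 3 rose and 0 fell, and edgeR without the pairing called 0 in either direction. The glutathione transferase gene *gst-10* rose by 1.72 ± 0.29, and the short chain dehydrogenase gene *dhs-14* fell by 1.70 on the log2 scale (29 genes of that family, 4 up and 5 down, with 2 up without population 2 and 2 down without population 1).

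Families of secreted peptides, chemoreceptors and transthyretin-related proteins had 8.33% to 20.8% of their tested genes up, against 8.64% of all genes. Insulin-like peptide genes rose in 5 and fell in 1 of 28 tested (3 and 0 without population 1, 2 and 1 without population 2). Among them *ins-7*, a ligand that activates the insulin receptor DAF-2, had 102 and 91.2 CPM on *hda-1* RNAi, against 38.6 and 40.6 CPM on E.V. (1.29 ± 0.21, edgeR adjusted p = 2.34e-08). The components of the insulin/IGF-1 pathway itself had 0 up and 1 down of 12, a call lost without either population, without the pairing and by DESeq2. Of 96 neuropeptide genes 8 rose and 3 fell (4 rose without population 2 and 1 fell without population 1), with *nlp-43* at 1.35 and *nlp-1* at 1.05. Of 92 chemoreceptor genes that passed the filter, of 1310 annotated, 13 rose and 4 fell (7 and 0 without population 2). The chemoreceptor gene *srxa-15* had 45 and 44 reads on *hda-1* RNAi and 0 in both E.V. libraries, at least 13.3-fold higher, and *srd-58* had 86 and 55 reads against 4 and 2 reads (4.40 ± 0.55). Neuron markers had 1 call of 17, up, with a summed level of 1887 and 1980 CPM on *hda-1* RNAi and 1840 and 1949 CPM on E.V. Of 48 transthyretin-related genes 10 rose and 2 fell (4 and 1 without population 2), with *ttr-32* at 1.16 and *ttr-37* at -1.08. DESeq2 with the pairing called 3 insulin-like peptide, 2 neuropeptide, 6 chemoreceptor and 4 transthyretin-related genes up.

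In each of the next 4 families more genes fell than rose in the paired test, against 8.64% up and 4.32% down over all genes tested. Nuclear hormone receptors, a family of ligand-regulated transcription factors that is much enlarged in worms, had 2 up and 12 down of 169 (median -0.14), but 0 and 4 without population 1 and 1 and 3 without population 2. Genes with MATH and BATH domains had 2 up and 7 down of 29 (median -0.43), and 0 and 8 without population 1, but 3 and 2 without population 2. Homeobox genes had 1 up and 4 down of 52 (0 and 2 without population 1, 0 and 1 without population 2). F-box genes, substrate adaptors of ubiquitin ligases, had 9 up and 12 down of 108 (3 and 5 without population 1, 5 and 5 without population 2). Within that family *fbxa-73* rose by 2.96 ± 0.54 and *fbxa-66* fell, with 17.7 and 11.2 CPM on *hda-1* RNAi against 39.98 and 68.3 CPM on E.V. (-1.86 ± 0.23). Without the pairing edgeR called 0 genes in these 4 families, with 15 nuclear hormone receptors, 8 MATH and BATH, 4 homeobox and 14 F-box genes lower at an unadjusted p under 0.05, and DESeq2 with the pairing called 2 F-box genes in each direction and 0 in the other families.

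Genes of the machinery in which HDA-1 works were not called. This held for 16 NuRD, SIN3 and CoREST subunits (median 0.06), 16 synMuv B and heterochromatin factors (0.04), 11 other histone deacetylases (-0.15) and 8 histone acetyltransferases (0.11), all with 0 called by edgeR with or without the pairing, in the 12-library fit and by DESeq2. At an unadjusted p under 0.05 there were 1 NuRD or CoREST subunit up, 1 synMuv B factor down, 0 deacetylases and 1 acetyltransferase down. In simulated counts this test recovered 68.0% of genes with a 2-fold rise and 58.3% with a 2-fold fall. Those shares are over genes of all levels, with pairing and spread as assumed. Smaller changes in the genes of this paragraph may often have been missed.

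Mitochondrial genes had medians below 0 and few calls. Of 33 respiratory chain and ATP synthase genes 0 were called by edgeR with or without the pairing or by DESeq2, with 5 lower at an unadjusted p under 0.05 and 1 fall called without population 2 (median -0.24, with -0.42 and -0.12 in the 2 populations), of 64 mitochondrial ribosomal proteins 0 rose and 3 fell (median -0.31, with 0 calls without population 1), and of 19 genes of the mitochondrial unfolded protein response 0 rose and 1 fell (median -0.24, with 0 calls without population 1). None of the falls among the mitochondrial ribosomal proteins or in the unfolded protein response was called without the pairing or by DESeq2. The mitochondrial chaperone gene *hsp-6*, a usual reporter of that response, had 75.2 and 107 CPM on *hda-1* RNAi and 108 and 98.9 CPM on E.V., which overlap (-0.20 ± 0.20, edgeR adjusted p = 0.61). The chaperonin gene *hsp-60* overlapped as well, with 17.1 and 8.09 CPM on *hda-1* RNAi and 15.2 and 8.64 CPM on E.V. (0.06 ± 0.26). The gene *glp-1* had 26.4 and 16.2 CPM on *hda-1* RNAi and 21.01 and 17.1 CPM on E.V. (0.14 ± 0.24).

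Other housekeeping, cell type and germline groups had 0 to 3 calls each. Cytosolic ribosomal proteins had 1 call of 77 (median 0.09), *rpl-11.1*, which had 119.1 and 125 CPM on *hda-1* RNAi against 49.4 and 45.8 CPM on E.V. (1.36 ± 0.20) and was called with and without the pairing, by DESeq2 and without either population. Proteasome subunits had 1 up of 33 (0 in the 12-library fit), the endoplasmic reticulum unfolded protein response 0 up and 1 down of 15 (0 without population 2) and cytosolic heat shock proteins 3 up and 0 down of 15 (median 0.30, with 0 calls without population 2). Body muscle markers (12), coelomocyte markers (3) and somatic gonad markers (7) had 0 calls in edgeR and DESeq2, with medians of 0.03, 0.10 and 0.10 and with 1, 0 and 0 at an unadjusted p under 0.05, although 1 somatic gonad marker was called without population 1. The summed body muscle level was 2018 and 2044 CPM on *hda-1* RNAi and 2026 and 2048 CPM on E.V. Pharynx markers had 1 up of 8 (median 0.27) and neurotransmitter genes 1 up of 9 (median 0.75), neither kept without population 2, against a median of -0.01 over all genes tested. Germline lists other than sperm had 2 up of 8 for oocyte and eggshell genes (0 without population 2) and 0 of 4 for meiotic chromosome genes, with 1 of the 4 at an unadjusted p under 0.05 and 0 called by DESeq2.

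The remaining lists were mixed or small. DAF-16 reporters had 2 up and 4 down of 9 (0 and 4 without population 2, 4 and 2 without population 1), germline-loss longevity regulators 1 up of 12 (0 without population 1), iron and metal handling genes 2 up and 2 down of 7, antioxidant enzymes 0 up and 1 down of 8 (1 up and 0 down in the 12-library fit), lipases and lipid binding proteins 0 up and 1 down of 15, and abu and pqn genes 4 up and 1 down of 42 (1 and 0 without population 2).

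By mean CPM among called genes without overlap between diets, the other largest gains belonged to *spp-12* and to less studied genes. *F48C1.9* had 962 and 1378 CPM on *hda-1* RNAi, against 379 and 232 CPM on E.V. (1.95 ± 0.17), and *C25E10.8* had 1472 and 1925 CPM against 928 and 918 CPM (0.87 ± 0.16). *C18D11.6* and *Y37D8A.19* gained most of the others, by 0.77 and 0.58, but lost their calls without population 1. Neither was called by edgeR without the pairing (adjusted p = 0.32 and 0.35). *Y37D8A.19* was also not called without population 2 or by DESeq2 with the pairing (adjusted p = 0.066). In the same set, which leaves out *dod-6* because its diets overlap, the 6 largest losses of mean CPM were those of *cpr-2*, *asp-18*, *scl-19*, *mtl-1*, *lron-7* (-0.68) and *asp-6* (-0.79), of which *lron-7* was not called without population 2 (0.14) and *asp-6* not without population 1 (0.10). Among the 12 genes with the highest rise in both populations were also *K06A4.6*, with 77.8 and 63.8 CPM on *hda-1* RNAi against 1.36 and 1.60 CPM on E.V. (5.59 ± 0.31), and *E03H12.7*, with 147 and 91 reads against 3 and 0 reads. *K06A4.6* was even across genotypes, with log2 fold changes of 5.25 and 5.34 in the *set-26(-)* and *hcf-1(-)* double mutants.

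Calls were also counted by the level on E.V. Among the 3238 genes with the lowest E.V. level 495 rose (15.3%) and 13 fell (0.401%), whereas among as many genes with the highest level 154 rose (4.76%) and 263 fell (8.12%). A gene at the low end could pass the filter through its reads on *hda-1* RNAi alone, and the E.V. level is also the base of the fold, so these shares are set in part by the way the sets were made and are given without a test. By chromosome the upregulated share was 11.8% on V and 10.3% on X, against 5.93% on I and 5.89% on III, and the downregulated share was 6.01% on V and between 3.37% and 4.87% on the other nuclear chromosomes. Of 14 mitochondrially encoded genes 0 were called by edgeR, with 3 lower at an unadjusted p under 0.05. Among 73 long intergenic noncoding RNAs 13 rose (17.8%) and 2 fell.

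The age of the worms was described next, by the level of the same genes in the 10 *glp-1(-)* libraries of day 1, day 3 and day 12, normalised together. The E.V. libraries of day 12 are shared between the age series and the diet comparison, so no test or overlap is given between them. On *hda-1* RNAi, *asp-18* had 4.73 and 2.76 CPM at day 3 and 1.29 and 0.0981 CPM at day 12. On E.V. it had 0 and 1.55 CPM at day 1, 3.11 and 0.713 CPM at day 3 and 946 and 187 CPM at day 12. Thus its day 12 level on *hda-1* RNAi lay within the range of the young adults, and the high level was seen in the 2 E.V. libraries of day 12 alone. The pattern of *scl-19* was alike, with 0.689 and 0.294 CPM on *hda-1* RNAi at day 12, against 682 and 148 CPM on E.V. at day 12 and 0 to 5.51 CPM in the young adults. For *cpr-2* the day 12 levels were 41.9 and 25.8 CPM on *hda-1* RNAi and 6490 and 439 CPM on E.V., both above the young adults (0 to 12.0 CPM).

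In *cpr-1* the order was the reverse. It had 568 and 551 CPM at day 3 and 467 and 114 CPM at day 12 on *hda-1* RNAi. On E.V. it had 256 and 240 CPM at day 1, 572 and 456 CPM at day 3 and 14.6 and 3.21 CPM at day 12, the only group under 100 CPM. Likewise *spp-14* had 2990 and 2540 CPM on *hda-1* RNAi at day 12, against 906 and 369 CPM on E.V. at day 12, 4000 and 4180 CPM on E.V. at day 3 and 3840 and 3300 CPM at day 1. For *col-183* the day 12 values on *hda-1* RNAi (58.2 and 106 CPM) stood between those of E.V. worms at day 12 (2.58 and 3.69 CPM) and at day 3 (403 and 338 CPM).

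Another set of genes was lower on *hda-1* RNAi at day 12 than on E.V., where it was already lower than at day 3. *F55G11.4* had 2.84 and 3.24 CPM on *hda-1* RNAi at day 12, against 27.1 and 13.3 CPM on E.V. at day 12 and 7230 and 6320 CPM on E.V. at day 3. For *comt-4* the values were 5.08 and 3.43 CPM on *hda-1* RNAi at day 12, against 105 and 15.1 CPM on E.V. at day 12 and 743 and 459 CPM on E.V. at day 3. The histone gene *his-60*, in contrast, had 32.5 and 68.5 CPM on *hda-1* RNAi at day 12, against 0.258 and 0.119 CPM on E.V. at day 12 and 0 reads at days 1 and 3 on either diet. In the same way *spp-12* had 628 and 1190 CPM on *hda-1* RNAi at day 12 and no more than 57.7 CPM in any of the other 8 *glp-1(-)* libraries.

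**Figure D4:**
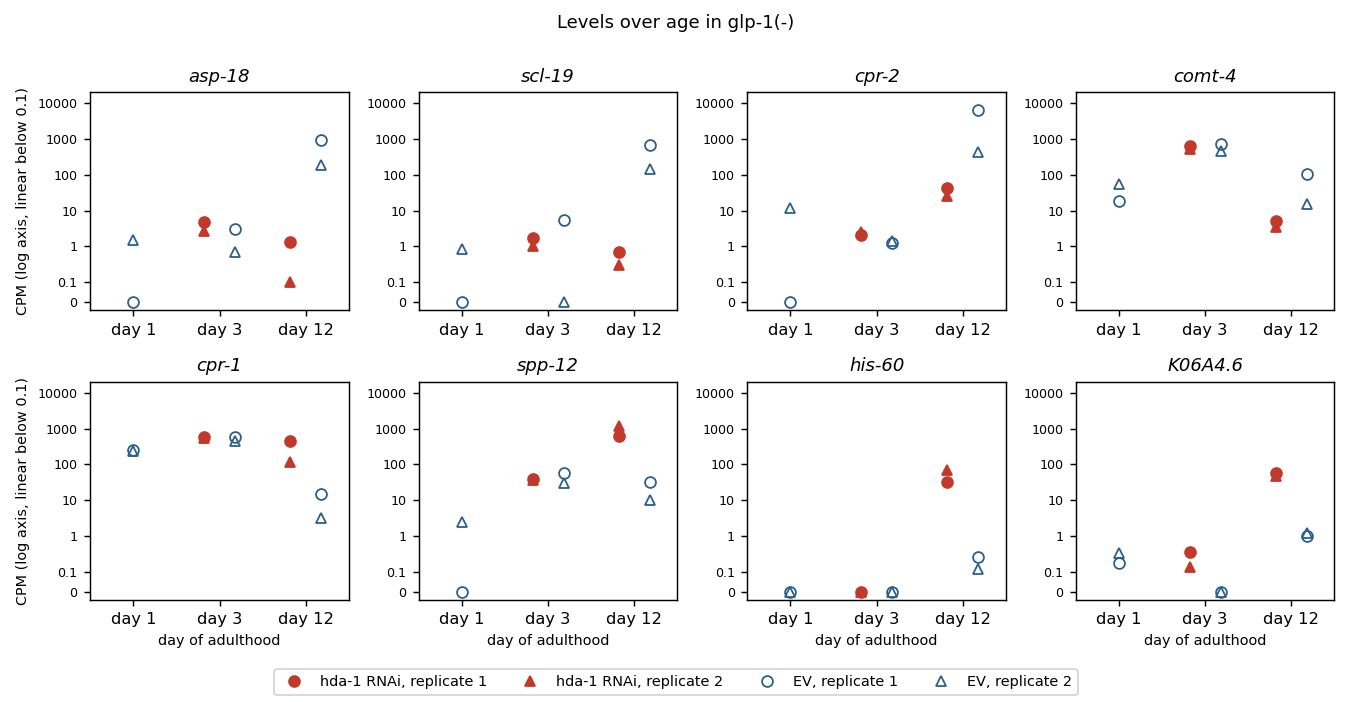
CPM on a log axis (linear below 0.1) of 8 genes in the 10 *glp-1(-)* libraries, by day of adulthood, with *hda-1* RNAi as filled red and E.V. as open blue symbols (circles replicate 1, triangles replicate 2). *asp-18*, *scl-19* and *cpr-2* are high only in the E.V. worms of day 12, *cpr-1* is low only there, and *his-60*, *spp-12* and *K06A4.6* are highest on *hda-1* RNAi at day 12.

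The effect of *hda-1* RNAi in *glp-1(-)* differed between the ages for 410 of 13354 genes (3.07%), 271 in the positive direction (2.03%) and 139 in the negative direction (1.04%), by an edgeR test of the difference of the effects over 8 libraries. At day 3, 61 genes rose (0.529%) and 43 fell (0.373%) of 11530. Of the genes called at day 12, 1345 were tested at day 3 and 872 of these (64.8%) had the same sign, with a median of 0.10 among those upregulated at day 12 and -0.08 among those downregulated. The 41 genes called on both days in the same direction were 2.44% of the day 12 calls and 39.4% of the day 3 calls. The difference (day 12 minus day 3) was highest among the named genes for *grd-4* (8.59), *spp-12* (5.59 ± 0.52, adjusted p = 3.00e-06) and *cpr-1* (4.92 ± 0.24, adjusted p = 2.08e-10), and in the negative direction for *asp-18* (-10.65 ± 0.47, adjusted p = 8.08e-11), *scl-19* (-8.75) and *cpr-2* (-6.50). *grd-4* had 40.4 and 48.0 CPM on E.V. at day 3 and 0 in both E.V. libraries of day 12, so its value depends on the count added to 0. Without the pairing 16 and 1 differences were called, DESeq2 called 147 and 50, and 634 and 687 in all were called by edgeR without population 1 or population 2 of day 12.

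In the 2 double mutants of day 12, which share no library with *glp-1(-)*, the diet effects mostly pointed the same way. In *set-26(-)* 1031 genes rose (7.76%) and 1171 fell (8.82%), and in *hcf-1(-)* 1709 rose (12.2%) and 1365 fell (9.71%). These counts come from the same paired fit of 4 libraries with 1 residual degree of freedom, and no other fit is given for them. Depth also differed, with 6966458 and 17748121 reads in the *hcf-1(-)* libraries on *hda-1* RNAi, so the counts do not rank the genotypes by strength of response. Of the genes called in *glp-1(-)*, 1441 of the 1614 tested in *set-26(-)* (89.3%) and 1532 of the 1631 tested in *hcf-1(-)* (93.9%) had the same sign there. Those called in both with the same direction were 781 in *set-26(-)*, 46.5% of the *glp-1(-)* calls and 35.5% of the *set-26(-)* calls, and 1124 in *hcf-1(-)*, 67.0% and 36.6%. In all 3 genotypes 437 genes were called up and 212 called down. The genes upregulated in *glp-1(-)* had a median log2 fold change of 0.78 in *set-26(-)* and 0.95 in *hcf-1(-)*, and the downregulated ones of -0.62 and -0.54. These genes were chosen on their *glp-1(-)* values, so the medians do not compare the strength of the effect between genotypes.

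A test of the difference itself called 140 genes more positive (0.944%) and 43 more negative (0.290%) in *glp-1(-)* than in *set-26(-)* of 14836 genes, 183 or 1.23% in all, and 45 (0.303%) and 35 (0.236%) against *hcf-1(-)*, 80 or 0.539% in all. Without the pairing edgeR called 0 genes in either comparison, with 546 and 293 genes at an unadjusted p under 0.05 against *set-26(-)* and 298 and 237 against *hcf-1(-)*, while DESeq2 with the pairing called 148 and 45, and 54 and 38. Leaving out population 2 of *glp-1(-)* gave 71 genes in all against *set-26(-)* and 86 against *hcf-1(-)*, and leaving out population 1 gave 605 and 97. For *asp-18* the effect in *glp-1(-)* minus that in *set-26(-)* was -4.25 ± 0.54 (edgeR adjusted p = 0.00073), and minus that in *hcf-1(-)* it was -5.81 ± 0.49 (adjusted p = 1.34e-05). Normalised over the 12 libraries of day 12 it had 1.82 and 0.139 CPM in *glp-1(-)*, 17.1 and 5.61 CPM in *set-26(-)* and 53.7 and 17.9 CPM in *hcf-1(-)* on *hda-1* RNAi. On E.V. the values overlapped between genotypes, at 1330 and 268 CPM in *glp-1(-)*, 430 and 477 CPM in *set-26(-)* and 838 and 244 CPM in *hcf-1(-)*. For *cpr-1* the rise was larger than in *set-26(-)* by 3.21 ± 0.27 (adjusted p = 8.62e-06) and than in *hcf-1(-)* by 1.87 ± 0.27 (adjusted p = 0.00198). Here the genotypes overlapped on *hda-1* RNAi, with 656 and 161 CPM in *glp-1(-)*, 576 and 241 CPM in *set-26(-)* and 632 and 269 CPM in *hcf-1(-)*, and *glp-1(-)* was below both mutants on E.V., with 20.6 and 4.59 CPM in *glp-1(-)*, 207 and 52.0 CPM in *set-26(-)* and 75.3 and 27.8 CPM in *hcf-1(-)*.

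*C14C6.5* and *F55G11.4* were reduced in *glp-1(-)* with little change in one or both mutants. *C14C6.5* fell by 2.64 on the log2 scale in *glp-1(-)* and had -0.13 ± 0.21 in *set-26(-)* and -0.11 ± 0.13 in *hcf-1(-)*, neither called. *F55G11.4* had -0.29 ± 0.18 in *set-26(-)*, which was not called, and fell by 1.39 in *hcf-1(-)*. A further negative difference from *hcf-1(-)* was that of *nspe-7* (-6.06), which had 12.6 and 22.2 CPM on *hda-1* RNAi and 28.2 and 83.2 CPM on E.V. in *glp-1(-)* (-1.55 ± 0.22, a call lost without population 2, adjusted p = 0.14) and rose by 4.47 ± 0.23 in *hcf-1(-)*. At the other end, *grd-4*, *cyp-33C1* and *clec-17* were at 0 in the E.V. libraries of *glp-1(-)* only, with 25 and 37 reads for *grd-4*, 27 and 31 for *cyp-33C1* and 105 and 97 for *clec-17* in the E.V. libraries of *set-26(-)*, so their differences rest on folds against 0 reads.

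Of the histone genes, *his-59*, *his-60*, *his-3* and *his-7* had positive and called effects in both mutants. The histone list as a whole had 13 up and 1 down of 22 tested in *set-26(-)* (median 2.24), 15 up and 2 down of 22 in *hcf-1(-)* (1.95) and 2 up and 0 down of 15 at day 3 in *glp-1(-)* (0.31). On *hda-1* RNAi the level of *his-60* was 45.7 and 97.0 CPM in *glp-1(-)*, against 15.2 to 23.8 CPM in the 4 libraries of the mutants. The levels did not overlap, but the effects on the log2 scale did not differ past the threshold (adjusted p = 0.90 and 0.62). Among histone genes only *his-15* (WBGene00001885) was called in these tests, at 5.34 against *set-26(-)* and 5.30 against *hcf-1(-)*, with 0 and 0.170 CPM on E.V. in *glp-1(-)*. *hsp-6*, which was not called in *glp-1(-)*, fell by 1.30 in *set-26(-)* and by 0.61 in *hcf-1(-)*, and its effect differed between *glp-1(-)* and *set-26(-)* by 1.10 ± 0.25 (adjusted p = 0.040).

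**Figure D5:**
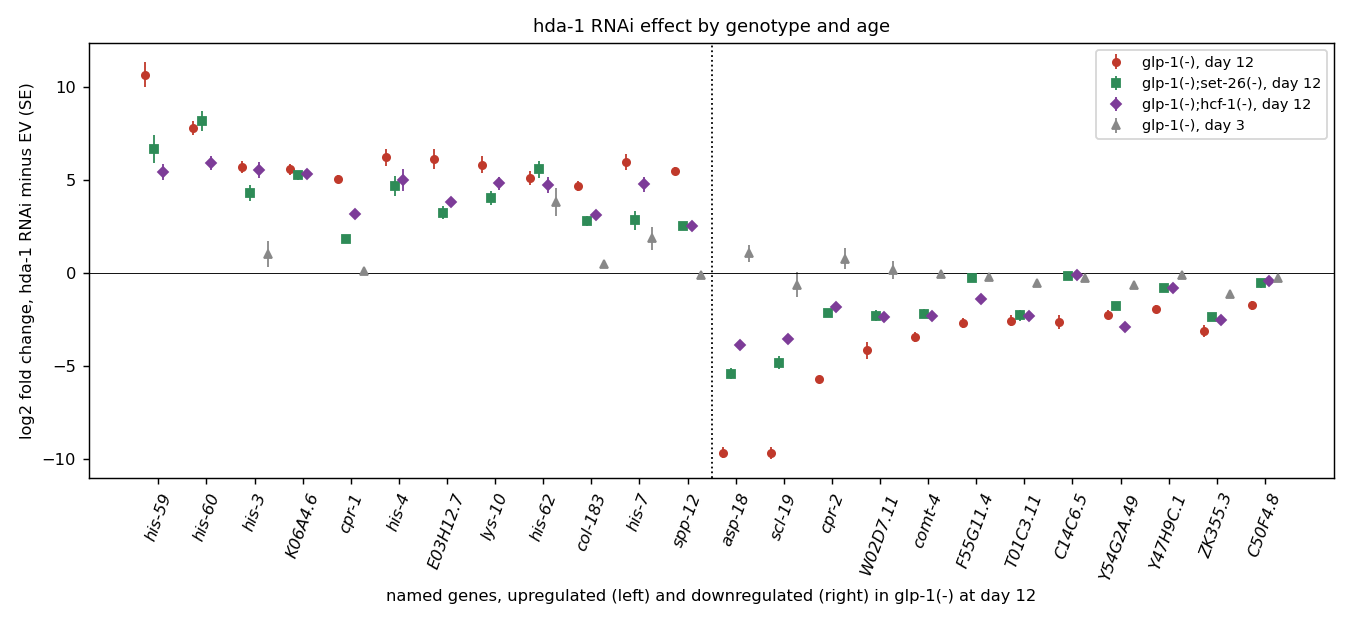
Log2 fold change on *hda-1* RNAi minus E.V. with its SE for the 12 highest and 12 lowest genes of *glp-1(-)* at day 12 (red circles), beside the *set-26(-)* (green squares) and *hcf-1(-)* (purple diamonds) double mutants at day 12 and *glp-1(-)* at day 3 (grey triangles, drawn where tested). Effects share their sign between the genotypes and are mostly near 0 at day 3, and those of *asp-18*, *scl-19* and *cpr-2* are largest in *glp-1(-)*.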

How the data were processed

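RNA of whole worms was made into 3′ libraries with QuantSeq kits from 315 ng of RNA and 13 PCR cycles. The deposited values were counts of reads per gene, which the authors made with Trim Galore 0.6.5, STAR 2.7.9a (reads placed once, at most 2 mismatches, ce11/WBcel235) and strand-specific gene counting. The annotation release was not given in the sources used here. Gene names and positions were taken from the WBcel235 annotation (44113 of 46934 genes had a symbol, 46924 a position). No sequences were used here.

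Samples were grouped by the labels. Counts were tested in R 4.3.3 with edgeR 4.0.16 (glmQLFit and glmQLFTest, TMM, more than 10 reads in at least 2 libraries of a fit, Benjamini-Hochberg adjustment over all genes tested, called at an adjusted p under 0.05), and DESeq2 1.42.0 (limma 3.58.1 was loaded with edgeR) gave an alternative. The model held the diet and the replicate number as a block, because the methods of the study state that a population was divided between diets at day 1. In the data, the differences between replicates had a correlation of 0.422 between the diets across genes. Labels do not say that the 2 populations of a genotype were independent in every respect, so p-values measure the spread between these libraries. The paired fit had 1 residual and infinite prior degrees of freedom, the fit of 12 libraries 3 residual and 13.6 prior. The difference between diet effects was tested with a block per population in the 12 libraries of day 12. In the 8 *glp-1(-)* libraries of days 3 and 12 the block was the day and replicate number. That fit did not pair the days, although they drew on the same populations.

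Levels are CPM with TMM over the 4 libraries, or over 10 for age and 12 for genotypes. A change within a population is a difference of log2 CPM with a prior count of 2. A gene with 0 reads on E.V. was given a bound from 3 reads per library, and its fitted value depends on the prior count.

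Genes were named by rule: the called genes with a mean of at least 50 reads and no overlap between diets, the 12 highest and 12 lowest by the smaller change of the 2 populations and the 6 largest gains and losses of CPM, up to 3 called members per list and direction, the 3 highest and 3 lowest of each difference test, and *hda-1*, *glp-1*, *hsp-6* and *hsp-60*. The text gives those it needs. Histone genes, the reported runs of 4 or more consecutive tested genes, and *asp-1* were named outside it, after their values were seen. Members and lists were chosen with earlier results of these data known, and the protease and SCP-like lists after seeing values here.

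The test was checked on simulated counts (12636 genes tested): it called 96.0% of genes raised 4-fold, 88.9% of genes lowered 4-fold and 0.0804% of unchanged genes. Counts were drawn around paired means with the spread of the 12-library fit, and 200 genes were changed, so the check does not cover those assumptions. Alternatives were no block, DESeq2, DESeq2 size factors, no filter, a threshold of 0.01, the 12-library fit and leaving out populations or libraries. The remaining 12 libraries of the series were not used here.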

Additional observations from a re-analysis of the deposited data

Results flagged for a closer look

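The diet effects in *glp-1(-)* at day 12 were compared with those in the other groups by an edgeR test of the difference of the effects, and each value below is a log2 difference that passed an adjusted p of 0.05. The effect in *glp-1(-)* minus that in *set-26(-)* was called for 140 genes in the positive and 43 in the negative direction. Among named genes the positive differences were *grd-4* (7.54), *cyp-33C1* (6.34), *clec-17* (6.28), *his-15* (5.34), *cpr-1* (3.21), *spp-12* (2.95), *col-183* (1.87) and *hsp-6* (1.10). Negative differences were *scl-19* (-4.85), *asp-18* (-4.25), *cpr-2* (-3.60), *C14C6.5* (-2.55), *F55G11.4* (-2.41) and *Y47H9C.1* (-1.08).

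For *glp-1(-)* minus *hcf-1(-)* the counts were 45 and 35. Positive differences were *grd-4* (7.94), *cyp-33C1* (6.80), *clec-17* (6.01), *his-15* (5.30), *spp-12* (2.95) and *cpr-1* (1.87). Negative differences were *scl-19* (-6.13), *nspe-7* (-6.06), *asp-18* (-5.81), *cpr-2* (-3.93), *C14C6.5* (-2.58) and *Y47H9C.1* (-1.12). The values of *grd-4*, *cyp-33C1*, *clec-17* and *his-15* rest on 0 or 1 read in the E.V. libraries of *glp-1(-)*. None of these differences between genotypes was called without the pairing.

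For day 12 minus day 3 in *glp-1(-)* the counts were 271 and 139. Positive differences were *grd-4* (8.59), *spp-12* (5.59), *cpr-1* (4.92), *his-3* (4.69), *col-183* (4.18), *his-7* (4.07), *spp-14* (2.37), *his-40* (1.96), *F48C1.9* (1.79) and *C18D11.6* (0.817). Negative differences were *asp-18* (-10.6), *scl-19* (-8.75), *cpr-2* (-6.50), *W02D7.11* (-4.31), *comt-4* (-3.46), *F55G11.4* (-2.46), *C14C6.5* (-2.39), *T01C3.11* (-2.05), *ZK355.3* (-2.04), *Y47H9C.1* (-1.80), *Y54G2A.49* (-1.62), *C50F4.8* (-1.48) and *mtl-1* (-0.845).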

How the results depend on the processing

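With no replicate block, 118 genes were called up and 10 down at day 12. Differences of effects were then called for 0 genes against *set-26(-)*, 0 against *hcf-1(-)* and 17 against day 3. DESeq2 with the block called 358 up and 149 down at day 12 and 197 differences from day 3, and DESeq2 without it 300 up and 57 down. With no filter on low counts 600, 252 and 643 differences were called against *set-26(-)*, *hcf-1(-)* and day 3. At an adjusted p under 0.01, 342 genes were down. Leaving out a population or library gave 4 to 628 genes up and 0 to 369 down at day 12, and leaving out a population 71 to 605 differences from *set-26(-)*, 86 to 97 from *hcf-1(-)* and 634 to 687 from day 3. The lowest counts, 4 and 0, came without the *hda-1* RNAi library of population 2 in a fit with no block, where the lone library was taken to vary like the others. DESeq2 size factors kept each of these counts within 1.5 times.

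Of the called genes considered for the text, 74 (60.7%) were called without either population, 120 (98.4%) in the 12-library fit, 40 (32.8%) with no block and 84 (68.9%) by DESeq2 with the block. Signs turned in fits that left out a replicate, over all of which the log2 fold change ranged as follows, for *glp-1* from -0.223 to 0.479, *hsp-6* from -0.539 to 0.115, *hsp-60* from -0.553 to 0.555, *his-37* from -0.163 to 0.214, *his-72* from -0.298 to 0.168, *his-74* from -0.213 to 0.354, *vit-5* from -0.295 to 1.49 and *vit-6* from -2.17 to 0.369. The cause was not tested. Fits without a population hold a single *glp-1(-)* pair of day 12, so their calls rest on the spread of the other groups and do not test a population by itself. With 2 populations the precision rests on spread borrowed across genes, and genes under a few reads per library are limited by counting.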

Other observations

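Besides the histone and asp clusters described above, 7 further runs of 4 or 5 consecutive tested genes were called in a single direction (WBcel235 coordinates), and they are given as positions with no test. A run of 4 downregulated genes on chromosome II (II:1763372-1778542) held *math-28*, *math-26* and *math-3*, members of the MATH domain family in which 7 of 29 tested genes fell. Another downregulated run (V:4694972-4726726) held *prx-6*, a peroxisome biogenesis factor, beside ZC266.1, *F39G3.5* and *F39G3.4*. Upregulated runs included *cpr-1* with *F58H1.6*, *F58H1.5* and *F58H1.7* (V:11942625-11976756), *F44G3.7*, *clc-11*, *clc-32*, *fbxa-18* and *F10A3.4* (V:16133780-16151899), and 4 genes on chromosome IV (IV:12901680-12912129), *K08D8.3*, *K08D8.4*, *K08D8.5* and WBGene00185093. These genes were named after their values were seen.

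By annotated class, 18 of 211 tested pseudogenes rose (8.53%) and 11 fell (5.21%), and 1073 of 12396 protein-coding genes rose (8.66%) and 535 fell (4.32%). Of 49 small nucleolar RNAs 2 rose and 0 fell.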
